A study of Homo sapiens with 36 samples.

Results

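Aminoacyl-tRNA synthetases are the enzymes that attach each amino acid to its transfer RNA. The genes described here are 35 such synthetase genes, taken from the table of counts by gene symbol, out of 60676 genes in the table. By their names, 19 encode cytosolic enzymes or subunits (names ending in 1, and FARSA and FARSB) and 16 encode mitochondrial enzymes (names ending in 2). The cells were LNCaP, an established human prostate cancer line that carries the androgen receptor, and messenger RNA was sequenced from 36 libraries. Cells were treated for 8, 24 or 72 h with the vehicle DMSO, with enzalutamide at 3 µM, with olaparib at 3 µM, or with the pair at these doses (the combination). Enzalutamide blocks the androgen receptor, and olaparib inhibits the PARP enzymes of DNA repair. Each of the 12 groups held 3 libraries from triplicate cultures of this 1 line. The labels do not say whether the cultures were set up independently, so p-values measure only the spread between these cultures.

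The cytosolic synthetases charge the transfer RNAs that feed protein synthesis on cytosolic ribosomes, and a separate set of nuclear-encoded enzymes is imported to charge those of the mitochondrion. Several cytosolic members sit together in a multi-synthetase complex held by scaffold proteins. Many cytosolic synthetase genes are known targets of ATF4, a transcription factor of the amino acid response that binds DNA with C/EBP partners. GARS1 and KARS1 are known to supply glycyl- and lysyl-tRNA synthetase to both compartments from 1 gene each.

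Total counts ran from 4.15 M to 15.4 M per library (median 9.63 M). The marker genes of prostate luminal cells summed to between 3173 and 5150 CPM (counts scaled to library size) over the libraries, while those of basal cells reached at most 2.15, stroma 29.6, endothelium 10.2 and blood 0.174. The androgen receptor target KLK3 fell by 6.67 ± 0.14 log2 with enzalutamide at 72 h, and the p53 target CDKN1A rose by 1.62 ± 0.06 log2 with olaparib at 72 h. DMSO replicate 1 at 72 h stood apart. It held 4.66 M counts, 1.54% of them from the mitochondrial genome against 3.97 to 7.05% in the other 35 libraries, and it had the lowest mean correlation with its replicates (0.982 on log2 CPM). Changes against DMSO at 72 h were therefore also fitted without it.

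In DMSO the synthetase genes spanned a wide range of levels, given here as CPM per kilobase of the deposited gene length so that genes can be compared (mean ± SD, n = 9 libraries over the 3 hours). FARSA, the alpha subunit of the phenylalanyl enzyme, stood at 175 ± 8.25 and AARS1, the alanyl enzyme, at 172 ± 20.4. Their ranges overlapped, and both lay above the glycyl enzyme GARS1 at 129 ± 7.75. The cytosolic median was 57.9 and the lowest cytosolic gene was the cysteinyl enzyme CARS1 at 7.51 ± 1.18. FARSB, the beta subunit that pairs with FARSA in 1 enzyme, stood at only 7.71 ± 0.843 over a deposited length of 6761 bases, against 2434 bases for FARSA.

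Mitochondrial enzymes were lower. The isoleucyl enzyme IARS2 was the highest at 36.8 ± 1.68, level with cytosolic MARS1 (39.3 ± 1.60) within the spread of the libraries, and the median of the 16 was 7.46. FARS2, the mitochondrial phenylalanyl enzyme, stood at 1.73 ± 0.311. SARS2 and VARS2 were lower still, with 264 and 71 counts over all 36 libraries. Much of their exon sequence is shared with a second annotated gene or genes: SARS2 shares 46.2% with ENSG00000269547 and 10.8% with MRPS12, and VARS2 shares 63.0% with ENSG00000288473. Reads on such bases were open to loss in the authors' counting, so their low values are uncertain. Without these 2 genes, the DMSO mean of the cytosolic enzyme exceeded that of its mitochondrial counterpart per kilobase in 14 of 14 pairs. The excess ran from 1.03-fold for HARS1 over HARS2 up to 101-fold for FARSA over FARS2 (median 4.07-fold). FARS2 was paired with FARSA alone, and FARSB, the other subunit, stood much nearer to it, at 7.71 against 1.73. The libraries of HARS1 (13.6 to 22.128) and HARS2 (13.993 to 16.373) overlapped, so the order of this pair is not settled. The highest HARS1 value came from DMSO replicate 1 at 72 h, the library that stood apart. The order of HARS1 and HARS2 was not tested without that library.

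Summed over the 19 genes, cytosolic synthetase mRNA was higher at 24 h with enzalutamide and with the combination, and lower at 72 h in all 3 drug groups. The sum was 5819 ± 155 CPM in DMSO at 8 h, 5706 ± 63.7 at 24 h and 6060 ± 534 at 72 h (mean ± SD, n = 3). At 24 h it was 6039 ± 42.3 CPM with enzalutamide and 5948 ± 59.5 with the combination, each library above every DMSO library, and 5585 ± 26.97 with olaparib, each library below. The 72 h spread in DMSO came from replicate 1 with 6677 CPM, beside 5751 CPM in each of the other replicates. At 72 h the sum was 4694 ± 26.6 CPM with enzalutamide, 4649 ± 30.2 with olaparib and 4047 ± 56.5 with the combination. No drug library at 72 h overlapped any DMSO library. Other measures moved at 72 h as well. The share of counts from the mitochondrial genome was 6.25 to 6.52% with olaparib and 6.73 to 7.05% with the combination, above the 1.54, 3.97 and 5.56% of DMSO, while enzalutamide lay between 5.06 and 5.39%. The luminal markers, which include androgen receptor targets, summed to 4572 ± 504 CPM in DMSO, 3325 ± 44.8 with enzalutamide, 4265 ± 32.9 with olaparib and 3331 ± 69.3 with the combination. Their part in the fall was not tested. In bulk RNA, less of an mRNA in each cell and fewer cells that make it cannot be told apart. The mitochondrial sum moved less, from 721 ± 37.7 CPM in DMSO at 72 h to 629 ± 12.99 with enzalutamide, 686 ± 9.19 with olaparib and 586 ± 12.1 with the combination. The ratio of the cytosolic to the mitochondrial sum was 8.39 ± 0.293 in DMSO at 72 h and 9.16 ± 0.0101 with enzalutamide at 24 h. It was 7.46 ± 0.116 with enzalutamide, 6.78 ± 0.0951 with olaparib and 6.91 ± 0.229 with the combination at 72 h.

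**Figure D1:**
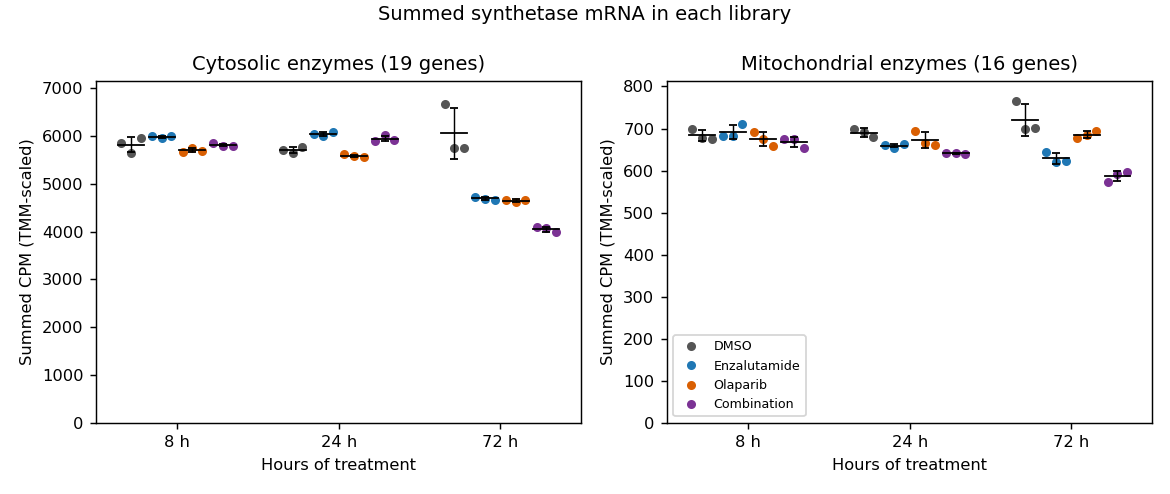
Summed TMM-scaled CPM of the 19 cytosolic (left) and 16 mitochondrial (right) synthetase genes in each library, by hours of treatment and treatment; points are libraries, bars are the mean and SD of 3. The cytosolic sums of the drug groups at 72 h, with means of 4694, 4649 and 4047 CPM, lie below every DMSO library, and 1 DMSO library at 72 h lies above the rest.

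The changes of single genes are given below as log2 fold changes ± standard error from 1 edgeR quasi-likelihood fit over all 36 libraries, with 15744 genes tested; calls are those whose p, adjusted by Benjamini-Hochberg across these genes, was under 0.05. Of the 35 members 34 could be tested, as VARS2 failed the filter on low counts. Library values are listed in the order of replicates 1, 2 and 3, which carry no order in time. The map of fold changes against DMSO shows all 34.

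**Figure D2:**
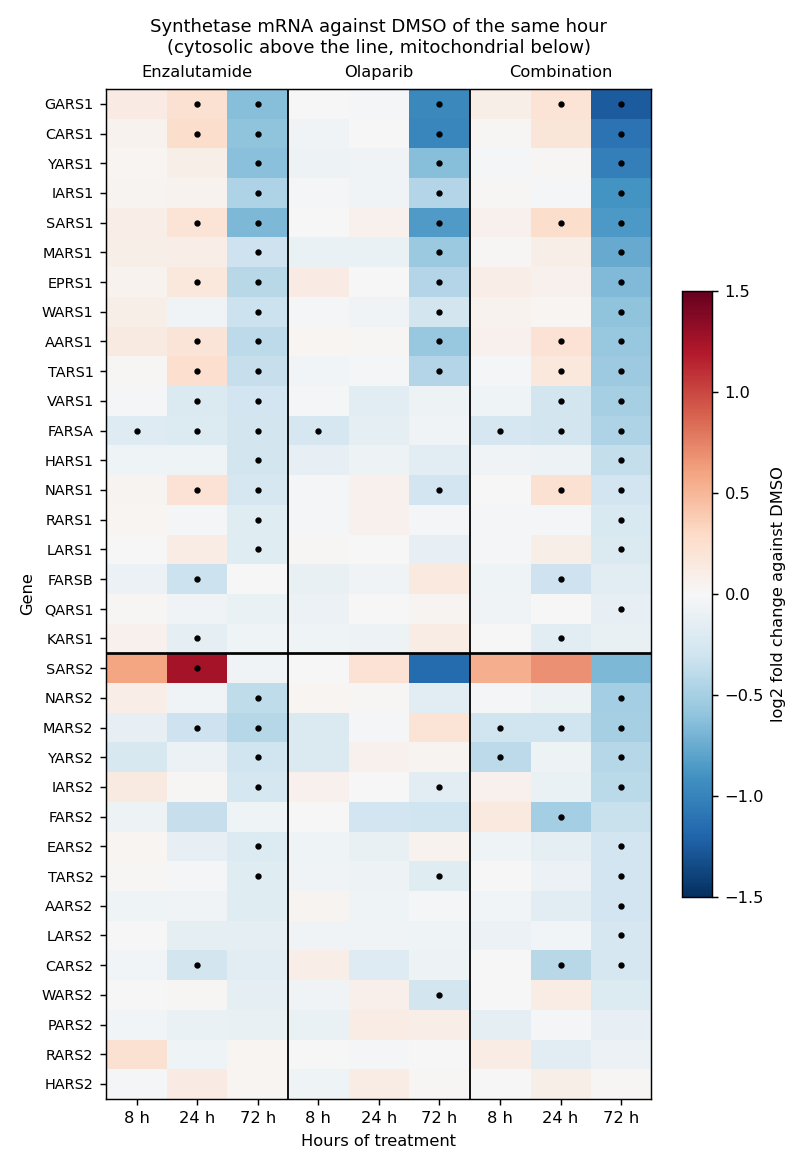
log2 fold change of each of the 34 tested synthetase genes (rows) against DMSO of the same hour, for 3 treatments at 8, 24 and 72 h (columns); black dots mark adjusted p below 0.05. With enzalutamide 7 of the 19 cytosolic genes above the line are called higher at 24 h and lower at 72 h, and 4 are called lower at 24 h; in the combination at 72 h GARS1 is lowest, at -1.25; SARS2 rests on 264 counts in all.

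At 8 h 1 cytosolic member was called in each treatment, and it was FARSA every time. FARSA was at 429, 423 and 432 CPM in DMSO, 377, 379 and 365 CPM with enzalutamide, 339.9, 369 and 371 CPM with olaparib and 356, 375 and 342 CPM with the combination. All 9 drug libraries lay below all DMSO libraries, and the comparisons of the drug groups share these DMSO libraries. It fell by 0.20 ± 0.05 with enzalutamide (adjusted p = 0.0161), by 0.25 ± 0.05 with olaparib (adjusted p = 0.00399) and by 0.26 ± 0.05 with the combination (adjusted p = 0.000475). Of all genes tested, 1.94%, 0.769% and 3.86% were called lower in these comparisons. FARSA with enzalutamide lost its call at 8 h when any 1 DMSO library or enzalutamide replicate 3 was left out. Tested directly at 8 h, the combination differed from enzalutamide in 0 members (0.654% of all genes by edgeR) and from olaparib in 0 (2.19%); 0 and 1 members had an unadjusted p below 0.05, and DESeq2 called 0 in both. Between 8 and 24 h of DMSO alone 0 members were called (0.648% of all genes by edgeR), 4 had an unadjusted p below 0.05, and DESeq2 called 0. In the combination at 8 h 2 mitochondrial enzymes also fell, the tyrosyl enzyme YARS2 by 0.39 ± 0.09 (adjusted p = 0.00552) and the methionyl enzyme MARS2 by 0.29 ± 0.09 (adjusted p = 0.0377). The MARS2 call was lost whichever library of these groups was left out (adjusted p 0.057 to 0.189), and with DESeq2 (adjusted p = 0.0753).

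At 24 h of enzalutamide the cytosolic genes divided into a group that rose and a group that fell. The 7 that rose, of 19, were the threonyl enzyme TARS1, CARS1, GARS1, the asparaginyl enzyme NARS1, the seryl enzyme SARS1, AARS1 and EPRS1, which joins glutamyl and prolyl activities in 1 protein; 8.21% of all genes were called higher. TARS1 was at 359.6, 362 and 373 CPM in DMSO and 457.5, 413 and 438 CPM with enzalutamide, a rise of 0.26 ± 0.05 (adjusted p = 0.000481). GARS1 was at 482, 507 and 497 CPM in DMSO and 594, 562 and 586 CPM with enzalutamide, a rise of 0.23 ± 0.05 (adjusted p = 0.00124). For both genes the groups did not overlap, and the rises were small, 1.17-fold for GARS1. NARS1 went from 368, 352 and 369.5 CPM to 425, 416 and 425 CPM (0.22 ± 0.05, adjusted p = 0.00208). SARS1 went from 361, 362 and 357 CPM to 420.3, 419 and 409 CPM (0.21 ± 0.06, adjusted p = 0.0107). AARS1 went from 750, 732 and 744 CPM to 846, 867 and 838 CPM (0.20 ± 0.07, adjusted p = 0.0302). Each of these 3 was higher in every enzalutamide library than in every DMSO library. Among the 7, only EPRS1 had overlapping groups.

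The cytosolic genes that fell at 24 h of enzalutamide were 4: FARSB by 0.32 ± 0.09, the valyl enzyme VARS1 by 0.21 ± 0.06, FARSA by 0.21 ± 0.05 and KARS1 by 0.14 ± 0.05; 10.6% of all genes were called lower. FARSA and FARSB are the subunits of the same enzyme, and both were lower. KARS1, the lysyl enzyme, was at 262, 265 and 273 CPM in DMSO and 232, 251 and 245 CPM with enzalutamide, with no overlap. Over the 19 genes the median log2 change was 0.09, against 0.01 for all genes tested. Among mitochondrial enzymes MARS2 fell by 0.31 ± 0.09 and the cysteinyl enzyme CARS2 by 0.27 ± 0.08. SARS2 was called higher by 1.25 ± 0.36 (adjusted p = 0.0129), on 1.201, 1.10 and 1.29 CPM against 0.494, 0.638 and 0.268 CPM in DMSO. Without DMSO replicate 1, or without enzalutamide replicate 1, 9 members were called at 24 h instead of 14, 6 of them higher and 3 lower. With 1 library of these groups left out, the calls of AARS1 and KARS1 were each lost in 5 of 6 fits. The EPRS1 call was lost in 4 of 6, and those of CARS1, GARS1 and FARSA in 0 of 6.

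The combination at 24 h gave a similar picture, with 5 cytosolic genes called higher and 4 lower (21.6% of all genes were called in either direction). SARS1 rose by 0.27 ± 0.06, NARS1 by 0.23 ± 0.05, AARS1 by 0.22 ± 0.07, GARS1 by 0.20 ± 0.05 and TARS1 by 0.15 ± 0.05. FARSB, VARS1, FARSA and KARS1 fell by 0.31 ± 0.10, 0.28 ± 0.06, 0.27 ± 0.05 and 0.17 ± 0.05. These are the same 4 genes that fell with enzalutamide alone, in comparisons that share the DMSO libraries. FARS2, CARS2 and MARS2 fell among the mitochondrial enzymes, by 0.51 ± 0.16, 0.42 ± 0.09 and 0.30 ± 0.09. The combination count went from 12 to 7 members without combination replicate 3. Olaparib alone called 0 of 34 members at 24 h by edgeR, where 1.12% of all genes were called; 2 cytosolic and 1 mitochondrial member had an unadjusted p below 0.05, and DESeq2 also called 0. With olaparib the 24 h values of GARS1 were 474, 492 and 489 CPM, inside or next to its DMSO range.

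Tested directly at 24 h, the combination exceeded olaparib in 6 cytosolic genes, where 5.90% of all genes were called higher. GARS1 was higher by 0.23 ± 0.05, SARS1 by 0.20 ± 0.06, AARS1 by 0.20 ± 0.07, the methionyl enzyme MARS1 by 0.18 ± 0.05, TARS1 by 0.18 ± 0.05 and NARS1 by 0.16 ± 0.05. MARS2 was the 1 mitochondrial gene called, lower by 0.28 ± 0.09 (7.70% of all genes were lower). This count of 7 members fell to between 2 and 5 when 1 library was left out. The combination against enzalutamide at 24 h called 0 members by edgeR (1.92% of all genes), with 1 member at an unadjusted p below 0.05 and 0 by DESeq2.

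At 72 h every called member was lower than in DMSO, while 12.7% of all genes were called higher with enzalutamide and 8.22% with olaparib, and 42.5% were called in either direction with the combination. Of the 19 cytosolic genes, 16 fell with enzalutamide (14.6% of all genes were called lower), 11 fell with olaparib (9.69%) and 17 fell with the combination (22.6%). Of the 15 mitochondrial genes tested, 6, 3 and 9 fell. The cytosolic medians were -0.31, -0.29 and -0.55 log2 and the mitochondrial medians -0.16, -0.06 and -0.29, against -0.01 for all genes in each of the 3 comparisons. The 3 comparisons share the DMSO libraries. Without DMSO replicate 1 the cytosolic counts were 13, 11 and 17 and the mitochondrial counts 4, 1 and 7, with cytosolic medians of -0.23, -0.32 and -0.44 and mitochondrial medians of -0.08, 0.02 and -0.19. The mitochondrial calls of the single drugs were the least stable. With edgeR fitted to just the groups in each contrast 0 of 14 were called in either, with 4 and 1 at an unadjusted p below 0.05, and without the filter 3 and 0 were called; DESeq2 called 6 and 2.

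GARS1 (ENSG00000106105, chr7:30594838-30634033, plus strand, GRCh38) had the largest fall of any member in the combination. It was at 573, 523 and 520 CPM in DMSO at 72 h, 343, 349.5 and 343 CPM with enzalutamide, 283, 257 and 283 CPM with olaparib and 235, 220 and 227 CPM with the combination. The 4 groups did not overlap, and the combination was lowest. The falls were 0.64 ± 0.05 (adjusted p = 2.49e-12), 0.97 ± 0.05 (adjusted p = 1.29e-16) and 1.25 ± 0.05 (adjusted p = 9.13e-21), so that GARS1 in the combination stood at 0.422 of its DMSO level. Without DMSO replicate 1 they were 0.60, 0.93 and 1.20.

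CARS1 (ENSG00000110619, chr11:3000922-3057613, minus strand) followed. It was at 105, 72.5 and 76.4 CPM in DMSO, 54.7, 51.0 and 56.7 CPM with enzalutamide, 43.2, 39.2 and 43.6 CPM with olaparib and 39.6, 37.3 and 39.2 CPM with the combination. All drug libraries were below all DMSO libraries, and olaparib overlapped the combination. CARS1 fell by 0.61 ± 0.08, 0.98 ± 0.08 and 1.10 ± 0.09 in the 3 treatments, and by 0.45, 0.83 and 0.95 without DMSO replicate 1.

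SARS1 (ENSG00000031698, chr1:109213918-109238182, plus strand) was at 477, 371 and 385 CPM in DMSO, 265, 250.4 and 253 CPM with enzalutamide, 221, 232 and 228 CPM with olaparib and 228, 226 and 223 CPM with the combination. The combination overlapped olaparib alone, and both lay below enzalutamide. Its falls were 0.68 ± 0.06, 0.85 ± 0.06 and 0.86 ± 0.06, or 0.56, 0.74 and 0.74 without DMSO replicate 1. The tyrosyl enzyme YARS1 (ENSG00000134684, chr1:32775237-32818153, minus strand) was at 340, 264 and 264 CPM in DMSO. It stood at 185, 185 and 189.7 CPM with enzalutamide, 185, 182 and 187 CPM with olaparib and 139.5, 139.5 and 143.4 CPM with the combination. The single drugs overlapped each other and the combination lay below both. YARS1 fell by 0.62 ± 0.06, 0.64 ± 0.06 and 1.03 ± 0.06, or by 0.50, 0.51 and 0.91 without DMSO replicate 1.

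IARS1, the cytosolic isoleucyl enzyme (ENSG00000196305, chr9:92210207-92293756, minus strand), was little affected by the outlying DMSO library, with 361, 355 and 345 CPM in DMSO. It was at 262, 259 and 251 CPM with enzalutamide, 262, 261 and 259 CPM with olaparib and 187, 192 and 189 CPM with the combination. Again the single drugs overlapped and the combination was lower. Its falls were 0.46 ± 0.04, 0.44 ± 0.04 and 0.90 ± 0.04, or 0.45, 0.43 and 0.89 without DMSO replicate 1. MARS1 (ENSG00000166986, chr12:57475445-57517569, plus strand) was at 277, 275 and 257 CPM in DMSO, 225, 208 and 221 CPM with enzalutamide, 182, 188 and 179 CPM with olaparib and 155, 163 and 159 CPM with the combination. The 4 groups stood in that order without overlap, and the falls were 0.31 ± 0.05, 0.56 ± 0.05 and 0.76 ± 0.05, or 0.29, 0.54 and 0.74 without DMSO replicate 1. MARS1 shares 5.05% of its exon bases with DDIT3 and 7.38% with ARHGAP9, both on the opposite strand, so pairs lying wholly on those bases could not be assigned to 1 gene in counts made without strand. WARS1, the tryptophanyl enzyme, was at 122, 139.7 and 135 CPM in DMSO and 92.4, 85.2 and 86.0 CPM with the combination, a fall of 0.60 ± 0.06 (0.65 without DMSO replicate 1).

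**Figure D3:**
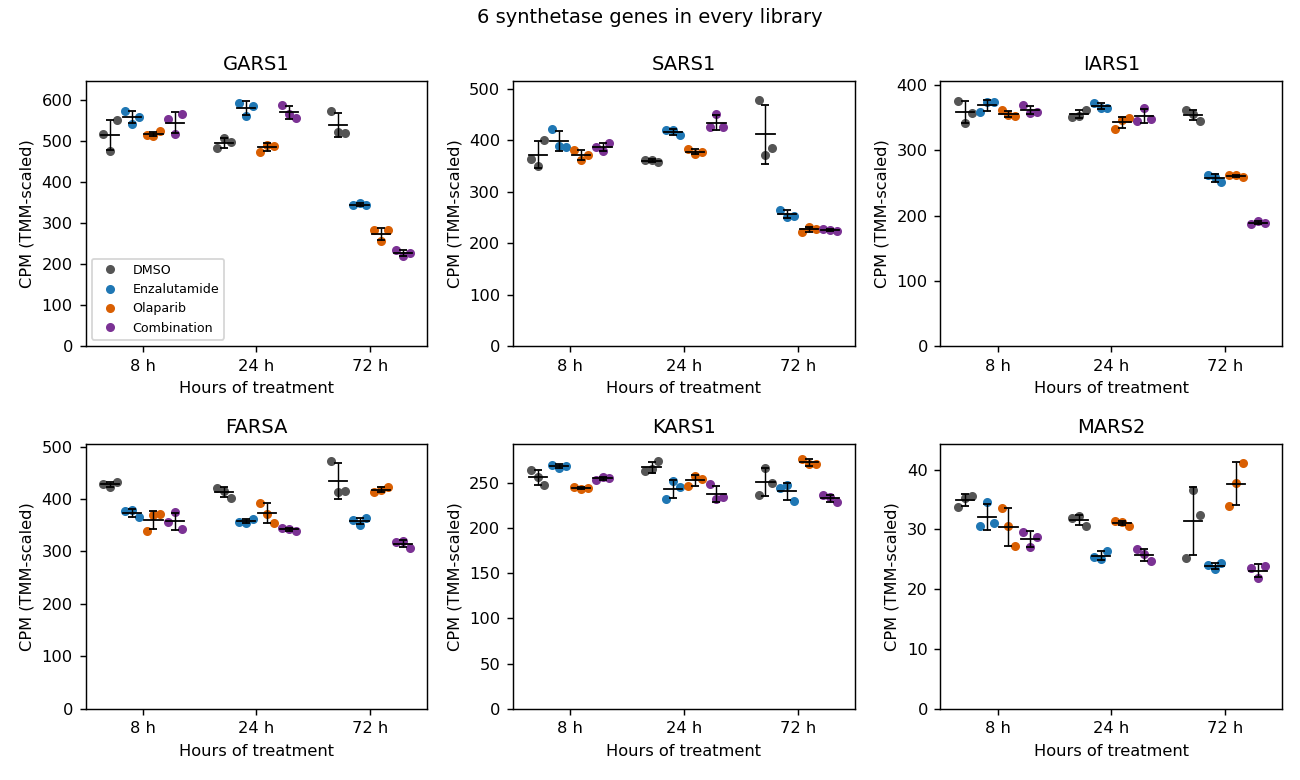
TMM-scaled CPM of GARS1, SARS1, IARS1, FARSA, KARS1 and MARS2 in each of the 36 libraries, by hours of treatment and treatment; points are libraries, bars are the mean and SD of 3. GARS1, SARS1 and IARS1 drop at 72 h in all 3 drug groups, to 220 to 235 CPM for GARS1 in the combination, while KARS1 stays between 228.5 and 276.5 CPM at 72 h.

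AARS1 (ENSG00000090861, chr16:70252295-70289543, minus strand) stood high in the outlying library, at 1013, 723 and 746 CPM in DMSO at 72 h. It was at 621, 625 and 637 CPM with enzalutamide, 558, 552 and 559 CPM with olaparib and 549, 562 and 562 CPM with the combination. Every drug library was below every DMSO library. The falls of 0.40 ± 0.07, 0.57 ± 0.07 and 0.57 ± 0.07 became 0.23, 0.40 and 0.40 without DMSO replicate 1, and all 3 stayed past the threshold. For the histidyl enzyme HARS1 the same library held 167 CPM beside 102 and 108 CPM. Its fall with enzalutamide went from 0.28 ± 0.09 to 0.05 (adjusted p = 0.572) without that library, and its fall with the combination from 0.35 ± 0.09 to 0.13 (adjusted p = 0.0898). The enzalutamide calls of LARS1, RARS1, NARS2 and TARS2, the olaparib calls of WARS2 and TARS2, and the combination calls of QARS1, AARS2 and CARS2 were also lost without it.

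Several cytosolic genes were not called in 1 or more treatments at 72 h. KARS1 was at 236, 266 and 249.8 CPM in DMSO, 243.6, 247 and 230.0 CPM with enzalutamide, 276.5, 270.1 and 270.0 CPM with olaparib and 236, 233.5 and 228.5 CPM with the combination. Its differences from DMSO were -0.07 ± 0.05, 0.12 ± 0.05 and -0.11 ± 0.05, with adjusted p-values of 0.329, 0.0831 and 0.0583. FARSB differed by 0.00 ± 0.09, 0.14 ± 0.09 and -0.17 ± 0.10 and passed in none of the 3. Both were called lower in the combination once DMSO replicate 1 was left out, KARS1 by 0.15 (adjusted p = 0.00768) and FARSB by 0.29 (adjusted p = 0.00613). QARS1, the glutaminyl enzyme, passed in the combination alone, by -0.13 ± 0.05 (adjusted p = 0.0451), a call lost whichever library of these groups was left out, with RLE scaling (adjusted p = 0.0701) and with DESeq2 (adjusted p = 0.0618). FARSA, lower since 8 h, was lower by 0.46 ± 0.05 with the combination at 72 h (0.40 without DMSO replicate 1) and stood at 414, 417 and 423 CPM with olaparib, inside its DMSO range of 413 to 473 CPM.

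Comparing 72 h with 24 h inside each treatment avoids the DMSO libraries at 72 h. With enzalutamide alone 12 cytosolic genes fell and 1, FARSB, rose (6.59% of all genes fell and 7.21% rose). With olaparib 11 fell and 1, FARSA, rose (6.54% and 4.50%), and with the combination 14 fell (8.90%). The FARSB call was lost in 4 of 6 fits with 1 library left out. That of FARSA was lost in 5 of 6, and without the filter. The 11 genes AARS1, CARS1, EPRS1, GARS1, IARS1, MARS1, NARS1, SARS1, TARS1, WARS1 and YARS1 fell in all 3 treatments. GARS1 fell by 0.75 ± 0.05, 0.82 ± 0.05 and 1.33 ± 0.05, and SARS1 by 0.70 ± 0.06, 0.73 ± 0.06 and 0.94 ± 0.06. The same 11 are the cytosolic genes called lower in all 3 treatments against DMSO at 72 h. In DMSO itself 0 members were called between 24 and 72 h by edgeR (0.146% of all genes); 10 had an unadjusted p below 0.05, and DESeq2 called 3 of the 21 to which it gave an adjusted p. Without DMSO replicate 2 at 72 h, 7 cytosolic members were called higher at 72 h, and 0 without replicate 1.

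The change of a drug's effect from 24 to 72 h was tested as its own contrast. It was below 0 and called for 12 cytosolic genes with enzalutamide (4.57% of all genes), 10 with olaparib (2.76%) and 12 with the combination (5.41%). IARS2 was the 1 mitochondrial gene called, with enzalutamide and with the combination. GARS1 shifted by -0.87 ± 0.07, -0.94 ± 0.07 and -1.45 ± 0.07. With enzalutamide 7 cytosolic genes, AARS1, CARS1, EPRS1, GARS1, NARS1, SARS1 and TARS1, were called higher at 24 h and lower at 72 h. In the combination 5 of them were: AARS1, GARS1, NARS1, SARS1 and TARS1. The enzalutamide calls of AARS1 and EPRS1 at 24 h were lost in 5 and 4 of 6 fits with 1 library left out. The 24 h call of AARS1 in the combination was lost in 2 of 6. YARS1 and IARS1 were not called at 24 h in any treatment and fell at 72 h in all 3.

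Fewer mitochondrial enzymes were called. At 72 h MARS2, NARS2, YARS2 and EARS2 were called lower with enzalutamide and not with olaparib. MARS2 was also called lower with enzalutamide at 24 h. MARS2 (ENSG00000247626, chr2:197705369-197708395, plus strand) was at 31.9, 32.3 and 30.7 CPM in DMSO at 24 h, 25.33, 25.02 and 26.4 CPM with enzalutamide and 26.7, 25.9 and 24.7 CPM with the combination. At 72 h it was at 25.2, 36.6 and 32.4 CPM in DMSO, 24.1, 23.3 and 24.3 CPM with enzalutamide, 33.9, 37.8 and 41.2 CPM with olaparib and 23.5, 21.9 and 23.9 CPM with the combination. At both hours all libraries with enzalutamide lay below all DMSO libraries, and at 72 h those with olaparib overlapped or exceeded them. The falls at 72 h were 0.43 ± 0.09 and 0.49 ± 0.09, or 0.54 and 0.60 without DMSO replicate 1, and the olaparib difference was 0.20 ± 0.09 and not called. Combination against olaparib gave the largest difference of any member in that comparison, -0.70 ± 0.09 (adjusted p = 9.81e-08).

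IARS2 (ENSG00000067704, chr1:220094132-220148041, plus strand) was at 157, 158 and 164 CPM in DMSO at 72 h and fell in all 3 treatments, to 136, 137 and 127 CPM, 141, 139 and 150 CPM, and 117, 118 and 126 CPM. The groups did not overlap DMSO, and the falls were 0.26 ± 0.05, 0.16 ± 0.05 and 0.40 ± 0.05. The olaparib call of IARS2 (adjusted p = 0.034) was lost without olaparib replicate 1 or 2 or without DMSO replicate 3 (adjusted p 0.0924 to 0.14). TARS2, the threonyl enzyme, was also called in all 3, by 0.19 ± 0.06, 0.19 ± 0.06 and 0.29 ± 0.06, but without DMSO replicate 1 the combination's call alone was left. NARS2 (asparaginyl), YARS2 and EARS2 (glutamyl) fell with the combination by 0.51 ± 0.13, 0.43 ± 0.10 and 0.29 ± 0.06. They were also called lower with enzalutamide, by 0.38, 0.30 and 0.20, and not called with olaparib (-0.17, 0.04 and 0.05). DMSO replicate 1 held 28.5 CPM of NARS2 beside 15.6 and 17.8 CPM. Without that library NARS2 fell by 0.28 with the combination. Its enzalutamide call was then lost, while those of YARS2 and EARS2 were kept. WARS2, the tryptophanyl enzyme, was at 25.2, 20.1 and 21.6 CPM in DMSO and 18.8, 17.97 and 17.03 CPM with olaparib, where it was called (0.27 ± 0.10 lower). In the combination WARS2 was at 17.6, 19.05 and 19.7 CPM and not called. HARS2, PARS2 and RARS2 (histidyl, prolyl and arginyl) were called in 0 of the 9 comparisons with DMSO.

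Set beside the enzyme for the same amino acid, the cytosolic gene had the lower log2 change in 13 of 15 pairs in each treatment at 72 h. The median difference, cytosolic minus mitochondrial, was -0.21 with enzalutamide, -0.26 with olaparib and -0.28 with the combination. EPRS1 enters 2 pairs, with EARS2 and PARS2. FARS2 was paired with FARSA and not with FARSB, the other subunit. FARSB had the higher change in each treatment, at 0.00, 0.14 and -0.17 against -0.07, -0.30 and -0.33 for FARS2. CARS1 and CARS2 were farthest apart in the combination, at -1.10 and -0.25, followed by YARS1 at -1.03 and YARS2 at -0.43. The pairs that went the other way in the combination were NARS1 with NARS2 (-0.29 and -0.51) and LARS1 with LARS2 (-0.22 and -0.25). Leaving out DMSO replicate 1, the cytosolic gene was lower in 14, 11 and 13 of the 15 pairs, with median differences of -0.16, -0.27 and -0.25. These counts were not tested, since genes are not replicates.

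**Figure D4:**
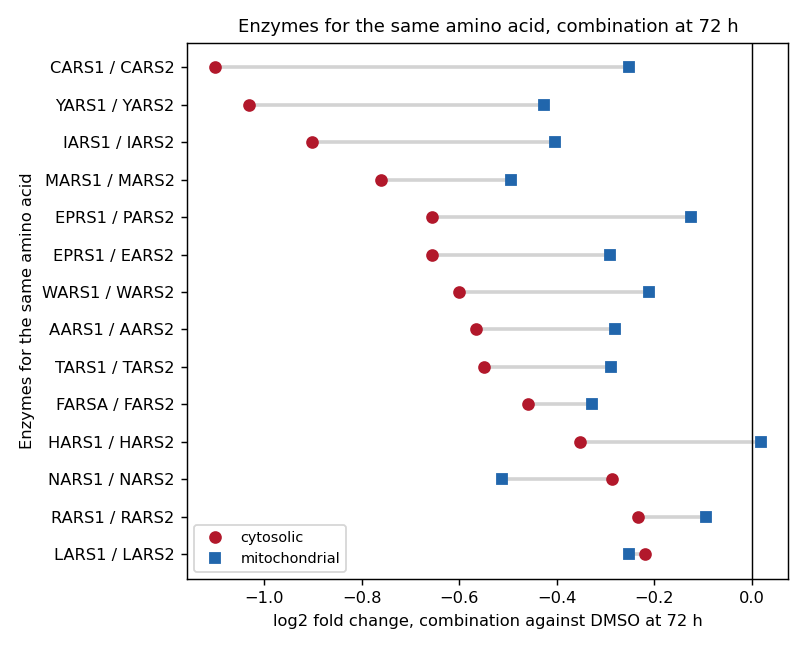
log2 fold change of the combination against DMSO at 72 h for 14 pairs of cytosolic (circles) and mitochondrial (squares) enzymes for the same amino acid; the pair with SARS2 is left out for its low counts. The circle lies left of the square in 12 of the 14 pairs drawn, the others being NARS1 with NARS2 and LARS1 with LARS2. FARS2 is drawn with FARSA and not with FARSB.

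Adding olaparib to enzalutamide lowered 11 cytosolic genes further at 72 h (8.04% of all genes were called lower). The largest were GARS1 by 0.61 ± 0.05, CARS1 by 0.50 ± 0.09, MARS1 by 0.45 ± 0.05, IARS1 by 0.44 ± 0.04, YARS1 by 0.41 ± 0.06 and WARS1 by 0.27 ± 0.06, and in each the groups did not overlap. The count was 7 without combination replicate 3. In this comparison 0 of 15 mitochondrial genes were called by edgeR; 1 had an unadjusted p below 0.05, and DESeq2 called 0. Adding enzalutamide to olaparib at 72 h gave calls for 12 of 19 cytosolic and 7 of 15 mitochondrial genes, all of them lower. Of all genes, 34.2% were called in either direction. IARS1 fell by 0.46 ± 0.04, VARS1 by 0.42 ± 0.06, FARSA by 0.41 ± 0.05, YARS1 by 0.39 ± 0.06, WARS1 by 0.33 ± 0.06 and FARSB by 0.31 ± 0.10. CARS1 and SARS1 were not called there.

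Whether the combination differed from the sum of the 2 single effects on the log2 scale was tested as a departure term. At 72 h it was above 0 and called for 4 members, all cytosolic, where 0.959% of all genes were called above 0. SARS1 had single effects of -0.68 and -0.85, a sum of -1.53, and a combination effect of -0.86, so that the departure was 0.67 ± 0.09 (adjusted p = 1.36e-05). The departure was 0.49 ± 0.12 for CARS1 (adjusted p = 0.0213), 0.40 ± 0.09 for AARS1 (adjusted p = 0.0134) and 0.37 ± 0.08 for GARS1 (adjusted p = 0.00461). In these 4 genes the combination fell by less than the 2 drugs' falls added together. IARS1 and WARS1 had departures of -0.00 ± 0.06 and 0.00 ± 0.08, with combination effects of -0.90 and -0.60, the same as their sums at 2 decimals. Without DMSO replicate 1 the 4 genes were still called, with departures of 0.55, 0.33, 0.23 and 0.32, and 1 was called when the fit held just the groups in the contrast. The count was 7 without DMSO replicate 2 at 72 h. At 8 and 24 h edgeR called 0 departures among all 15744 genes; 1 member at 8 h and 0 at 24 h had an unadjusted p below 0.05, and DESeq2 called 0 members.

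**Figure D5:**
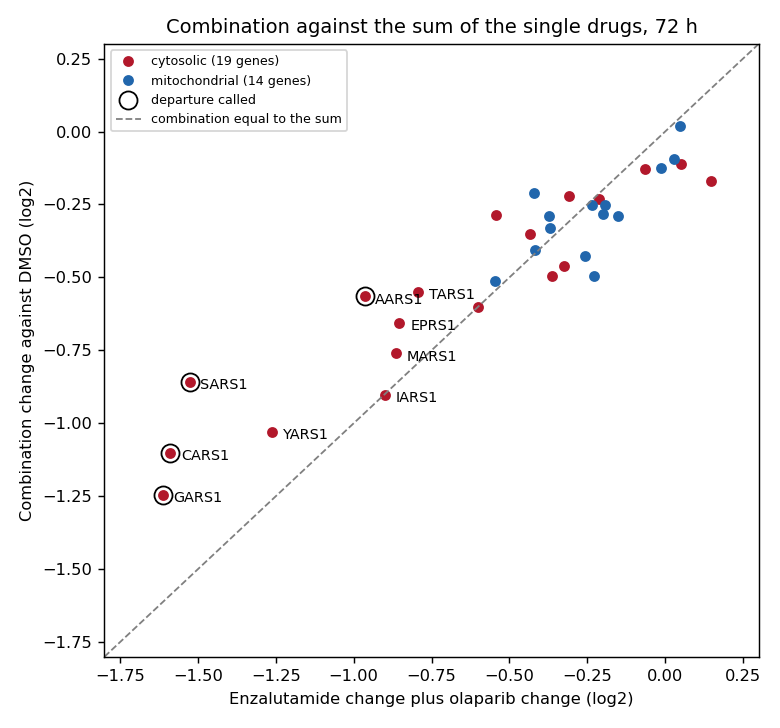
Combination change against DMSO at 72 h (vertical) against the sum of the enzalutamide and olaparib changes (horizontal), both log2, for 19 cytosolic and 14 mitochondrial genes without SARS2; the dashed line marks equality and open circles mark departures with adjusted p below 0.05. SARS1, CARS1, AARS1 and GARS1 lie above the line, while IARS1 lies on it.

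The synthetases fall into structural class I and class II by their catalytic fold, and both classes of cytosolic enzymes were lower at 72 h. In the combination 10 of 10 class I genes (EPRS1, which holds both folds, counted here) and 7 of 9 class II genes were called lower. Of all genes, 22.6% were called lower. The class medians were -0.63 and -0.46. The QARS1 call among class I was lost whichever library of these groups was left out. Without DMSO replicate 1, QARS1 and HARS1 were no longer called while KARS1 and FARSB were, which gave 9 of 10 and 8 of 9. Members of the multi-synthetase complex moved less in the median than the other cytosolic enzymes, -0.23 against -0.56. Of these, 6 of 7 and 11 of 12 were called lower, beside the same 22.6% of all genes. The complex members were themselves uneven. IARS1, MARS1 and EPRS1 fell by 0.90 ± 0.04, 0.76 ± 0.05 and 0.66 ± 0.06, and LARS1, RARS1, QARS1 and KARS1 differed by -0.22, -0.23, -0.13 and -0.11. The scaffold genes AIMP1, AIMP2 and EEF1E1 differed by -0.02 ± 0.06, -0.21 ± 0.09 and -0.17 ± 0.19, with adjusted p-values of 0.836, 0.0534 and 0.521. The differences between these groupings were not tested.

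The amino acid response genes, a list of 31 with ATF4 and its known targets, moved in the same directions. With enzalutamide at 24 h 15 were called higher, against 8.21% of all genes, and 1 lower, against 10.6% (median 0.16). At 72 h 26 fell with enzalutamide (median -0.55), where 14.6% of all genes fell. With olaparib 25 fell (median -0.87), where 9.69% of all genes fell. With the combination 28 fell and 1 rose (median -1.03), where 22.6% of all genes fell. The numbers that fell were 27, 26 and 29 without DMSO replicate 1. ATF4 itself was at 899.5, 876.5 and 847 CPM in DMSO at 24 h and 982.1, 995 and 952 CPM with enzalutamide, a rise of 0.16 ± 0.05. At 72 h it was at 1043, 885 and 918 CPM in DMSO, 607, 607 and 607 CPM with enzalutamide, 558, 546 and 527 CPM with olaparib and 500.6, 501.2 and 560.4 CPM with the combination. All drug libraries at 72 h were below all DMSO libraries, and the falls were 0.64 ± 0.05, 0.80 ± 0.05 and 0.86 ± 0.05. With olaparib at 72 h PHGDH, an enzyme of serine synthesis, fell by 1.30 ± 0.08, PSAT1 of the same pathway fell by 0.94 ± 0.06, and CHAC1, a glutathione-degrading enzyme, fell by 2.09 ± 0.12. The departure at 72 h was called above 0 for 15 of the 31 genes (median 0.43; 12 without DMSO replicate 1), against 0.959% of all genes, led by DDIT3 at 1.28 ± 0.18, which encodes the stress factor CHOP and shares exon bases with MARS1.

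Over the 12 group means, the log2 level of GARS1 followed the mean of the amino acid response list with a Pearson r of 0.996. MARS1, SARS1, CARS1 and AARS1 came next, at 0.990, 0.979, 0.975 and 0.973. YARS1, IARS1, EPRS1, TARS1 and WARS1 were between 0.947 and 0.963 and NARS1 was at 0.876. KARS1, RARS1, FARSA and FARSB were at 0.127, 0.158, 0.202 and -0.300. Among mitochondrial enzymes the highest was IARS2 at 0.772 and the lowest HARS2 at -0.246. These correlations describe 12 groups whose values come from the same libraries and scaling. Between pairs of members, the median r was 0.643 for cytosolic pairs (n = 171), 0.317 for mitochondrial pairs (n = 120) and 0.456 across the compartments (n = 304).

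Because these genes moved together, their promoters were searched for the C/EBP-ATF response element, the site bound by ATF4 with C/EBP partners, spelled TGATGNAA on either strand. The windows run from 250 bases before to 50 after each annotated start in RefSeq (GRCh38.p14), and 16 of the 19 cytosolic and 14 of the 16 mitochondrial genes matched an entry; LARS1, VARS1, YARS1, AARS2 and VARS2 did not. The element was present for 7 of 16 cytosolic genes (43.8%) and 1 of 14 mitochondrial genes (7.14%), against 4.46% of the 27305 symbols in the table. Some genes have more than 1 annotated start, and CARS1, GARS1 and TARS1 hold the element at 1 of their 2 starts. Counted by window, it was present in 7 of 21 cytosolic windows (33.3%) and 1 of 18 mitochondrial windows (5.56%), against 3.62% of all 35116 windows. The sites of these 8 genes are shown with flanking bases, 30 bases each, 5′ to 3′ on the gene's strand, with the element in capitals (TTGCATCA and TTTCATCA are its reverse complement).
AARS1 (chr16:70289675-70289704, minus strand): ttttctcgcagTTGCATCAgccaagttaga
CARS1 (chr11:3057407-3057436, minus strand): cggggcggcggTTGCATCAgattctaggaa
GARS1 (chr7:30594834-30594863, plus strand): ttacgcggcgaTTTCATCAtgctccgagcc
IARS1 (chr9:92293692-92293721, minus strand): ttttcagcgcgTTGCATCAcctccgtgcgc
MARS1 (chr12:57488053-57488082, plus strand): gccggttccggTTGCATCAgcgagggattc
NARS1 (chr18:57621804-57621833, minus strand): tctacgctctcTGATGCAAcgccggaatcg
TARS1 (chr5:33440956-33440985, plus strand): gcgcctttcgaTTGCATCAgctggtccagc
YARS2 (chr12:32756076-32756105, minus strand): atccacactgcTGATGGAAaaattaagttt

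Positions are given from the start of the window that holds the element. Its first base was 2 bases before the start in CARS1, 4 in MARS1, 13 in IARS1 and 33 in GARS1, and it was the third base of the transcript in TARS1. In NARS1 it began at base 15 of the transcript, and in AARS1 and YARS2 it began 187 and 197 bases before the start. The 7 cytosolic genes with the element were called lower in 7 of 7 cases with olaparib at 72 h (median -0.56). Of the cytosolic genes searched without it, 3 of 9 were (median -0.05), and 9.69% of all genes. With enzalutamide at 72 h the counts were closer, 7 of 7 (median -0.40) and 6 of 9 (median -0.27), beside 14.6% of all genes. In the combination at 72 h they were 7 of 7 (median -0.76) and 7 of 9 (median -0.35), beside 22.6% of all genes. With enzalutamide at 24 h 5 of 7 were higher, against 2 of 9 higher and 3 lower without the element. Of all genes, 8.21% were called higher and 10.6% lower there. EPRS1 and SARS1 rose and fell with this group although these letters were not in their windows. The E-box CACGTG, searched the same way, was present for 1 of 16 cytosolic genes, IARS1, and 3 of 14 mitochondrial genes, CARS2, EARS2 and MARS2, against 8.77% of all symbols. A match is a description of the letters and was not tested for binding.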

How the data were processed

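The starting point was the authors' deposited table of raw counts per gene, made per the file headers with featureCounts 2.0.0 on read pairs, Ensembl release 99 of GRCh38, without strand, with both mates required and fragments of 20 to 5000 bases. The option to count a pair for 2 overlapping genes was not set. The submitters' processing notes name STAR, DESeq2 and hg38. The deposited gene length (exon bases) gave CPM per kilobase. All 36 libraries entered 1 edgeR 4.0.16 quasi-likelihood fit (R 4.3.3) with a mean per group and no block, after TMM scaling; filterByExpr left 15744 genes with 99.8% of counts. There were 24 residual degrees of freedom and a common biological coefficient of variation of 6.44%. The p-values were adjusted by Benjamini-Hochberg per contrast over all genes; standard errors are the log2 fold change divided by the root of F.

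The members, gene lists, motifs and the rule for named genes (up to 6 called members of each compartment per contrast by size of change) were chosen with earlier results of these data known. On simulated counts for enzalutamide at 24 h over 15744 genes, 40% of 1.25-fold, 84% of 1.5-fold and 98% of 2-fold changes were recovered. Depth limits SARS2 and VARS2 most. Samples were grouped by their labels; each of 3 lanes held 1 library of each group. Alternatives were DESeq2 1.42.0, RLE scaling, no filter, replicate or lane blocks, only the libraries compared, and leaving out each library. Promoter sequences are RefSeq's (GRCh38.p14).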

Additional observations from a re-analysis of the deposited data

Results flagged for a closer look

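The following results were singled out because the effect of a treatment differed between 24 and 72 h, or because the combination differed from the sum of the single drugs, by a test of that difference in edgeR's quasi-likelihood fit. The enzalutamide effect changed for 13 members, most for SARS1 (-0.88 log2), GARS1 (-0.87), CARS1 (-0.87) and YARS1 (-0.71), with IARS2 (-0.28) as the mitochondrial gene. The olaparib effect changed for 10 members, most for CARS1 (-0.99), GARS1 (-0.94), SARS1 (-0.92) and YARS1 (-0.59). The combination effect changed for 13 members, most for GARS1 (-1.45), CARS1 (-1.28), SARS1 (-1.13) and YARS1 (-1.05), with IARS2 at -0.30. The departure from the sum at 72 h was called for 4 members, SARS1 (0.67), CARS1 (0.49), AARS1 (0.40) and GARS1 (0.37). Every changed effect was below 0 and every departure above 0. Of all genes, 4.57%, 2.76% and 5.41% had a change called below 0, and 0.959% a departure called above 0. All of these results share the DMSO libraries at 72 h, 1 of which stood apart. Without it the counts were 13, 11, 14 and 4, beside 582, 359, 743 and 156 of 16043 genes in the same directions.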

How the results depend on the processing

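Calls are counts of members past an adjusted p of 0.05. RLE scaling and a lane block kept every count within 1.5 times the first value. The replicate numbers do not pair the samples (median correlation of same-numbered deviations 0.0115), and the replicate block also kept every count within 1.5 times; of the named members it ended 1 call, QARS1 with the combination at 72 h (adjusted p = 0.05). Without the filter, enzalutamide at 8 h had 0 calls instead of 1 and combination against olaparib at 24 h 3 instead of 7. Fitting only the libraries compared, which leaves fewer samples to estimate the spread, gave 0 instead of 1 for enzalutamide at 8 h, 0 instead of 1 for olaparib at 8 h, 10 instead of 22 for enzalutamide at 72 h, 9 instead of 14 for olaparib at 72 h (all cytosolic in both) and 1 instead of 4 for the departure at 72 h. DESeq2 called 3 instead of 0 for DMSO 72 h against 24 h. Leaving out 1 library gave ranges of 0 to 1 for enzalutamide at 8 h, 9 to 12 at 24 h (first value 14), 7 to 11 for the combination at 24 h (12), 7 to 10 for combination against enzalutamide at 72 h (11), 2 to 5 for combination against olaparib at 24 h (7), 3 to 7 for the departure at 72 h (4) and 0 to 7 for DMSO 72 h against 24 h (0). The cause of these differences was not tested. Of the named members' values, 1193 kept their side of the threshold and 91 lost it over the alternatives, and 1336 and 188 with 1 library left out; 0 changed direction. Depth limits SARS2, with 264 counts in all libraries.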

Other observations

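Genes that work beside the synthetases moved unevenly at 72 h. XPOT, which carries transfer RNA out of the nucleus, fell by 0.43 ± 0.06 log2 with enzalutamide, 0.37 ± 0.06 with olaparib and 0.69 ± 0.06 with the combination. Of 13 mitochondrial translation genes 5 fell and 1 rose with enzalutamide, where 14.6% of all genes fell and 12.7% rose. Without DMSO replicate 1 at 72 h, 4 fell and 0 rose with enzalutamide. With olaparib 3 rose, where 8.22% of all genes rose, and 1 without DMSO replicate 1. With the combination 4 fell, where 22.6% of all genes fell, and 2 rose. TUFM, the mitochondrial elongation factor that delivers charged transfer RNA, fell by 0.32 ± 0.06 with enzalutamide and 0.38 ± 0.06 with the combination and differed by -0.08 ± 0.06 with olaparib (adjusted p = 0.365 by edgeR). GATC, a subunit of the enzyme that makes mitochondrial glutaminyl-tRNA, rose by 0.44 ± 0.08 with olaparib and 0.29 ± 0.08 with the combination. Of 6 genes of the eIF2 alpha kinases and their opposing phosphatase, 2 fell with enzalutamide (14.6% of all genes fell): EIF2AK4, the kinase GCN2 that senses uncharged transfer RNA, by 0.35 ± 0.06 and PPP1R15B, a phosphatase subunit, by 0.28 ± 0.06. With the combination EIF2AK4 fell by 0.44 ± 0.06 and PPP1R15B by 0.43 ± 0.06, and EIF2AK2 rose by 0.23 ± 0.09. With olaparib EIF2AK4 differed by -0.15 ± 0.06 (adjusted p = 0.065 by edgeR). EIF2AK1, EIF2AK3 and PPP1R15A were not called in any of the 3 treatments at 72 h.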
